A study of Mus musculus with 8 samples.

Results

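The genes described here are 34 genes of the unfolded protein response and the integrated stress response, chosen by name: 15 chaperones and folding enzymes of the endoplasmic reticulum (ER), 8 genes of ER-associated degradation and the translocon, 4 sensors and their transcription factors, and 7 genes around the transcription factor ATF4. In the livers of mice on a fatty diet, no member differed between Ube3a mutant and wild-type (WT) animals past the threshold used. This held in overexpressing mice, where 0% of all genes passed, and in heterozygous mice, where 1.44% did. In the former no list of genes could thus have held one that passed, and Ube3a itself passed in neither. What stood out was the distance between libraries of the same group. The ER chaperones were higher in 1 of the libraries of the overexpressing pair, nearly without exception. They were also higher in 1 of the libraries of the WT pair set against the heterozygotes. Other gene lists differed within these pairs too. All 10 genes of fatty acid synthesis were higher in the other library of the overexpressing pair. In that WT pair 27 of 30 further folding and translocation genes were higher in the same library as the chaperones. Atf4, Ern1, Xbp1 and P4hb, 4 of 33 members, lay on opposite sides of WT in the mutants without overlap, where 15.1% of all genes did so, and none of these differences passed the test over all genes. The count of such members is thus near that of genes in general.

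The mice were of the C57BL/6 background, and all of them received a 42% fat diet over 8 weeks before liver RNA was taken. There were 4 groups, each of 2 libraries. The first table holds mice homozygous for a Ube3a transgene (TG), which overexpress Ube3a, with a WT pair of its own. The second holds heterozygotes (het), in which 1 allele of Ube3a is a knockout and the other is WT, with another WT pair. The labels name neither the promoter of the transgene nor the age or sex of the animals, and nothing says that the libraries of a pair came from separate animals, so the tests measure the spread between these libraries, which may be technical. Values are normalised read counts per gene, taken to be the reads of a gene divided by a factor of its library. Of the 34 members, 33 were among the 13774 genes of the TG table and the same number among the 11773 genes of the het table. Asns, which encodes asparagine synthetase, was listed in neither table, so only its promoter is described here.

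When unfolded proteins build up in the ER, transmembrane sensors set off a response in the rest of the cell. IRE1 (Ern1) splices the RNA of Xbp1, whose product switches on genes of folding and degradation. ATF6 is cut in the Golgi to free a transcription factor that acts on chaperone genes. PERK (Eif2ak3) phosphorylates eIF2alpha, which lowers translation in general and raises that of ATF4, a step shared with the other kinases of the integrated stress response. In hepatocytes, which secrete most plasma proteins, this machinery is abundant and is known to respond to feeding and to lipid load. Gene totals of the kind used here do not tell spliced from unspliced Xbp1 RNA, nor do they show translation of ATF4 or phosphorylation of any sensor.

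The promoters of several members carry the elements through which this response is known to act. Stretches from chaperone, degradation and ATF4-type genes are printed below. RefSeq windows of 300 bases on GRCm38.p6, from 250 bases before the transcript start to 50 bases from it on, were searched on both strands for 3 motifs. ERSE, the ER stress element bound by ATF6 and XBP1 together with NF-Y, was searched as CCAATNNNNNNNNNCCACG. ERSE-II was searched as ATTGGNCCACG and the C/EBP-ATF response element (CARE) of ATF4 as TGATGNAA. A window was at hand for 29 members. ERSE was present in 39 of 32851 windows of all genes (0.119%) and in those of 9 members: Hspa5, Hsp90b1, Pdia6, Calr, Canx, Dnajc3, Creld2, Syvn1 and Derl3. ERSE-II was found in 12 windows (0.0365%), among them those of Dnajb11 and Herpud1, and CARE in 1304 windows (3.97%), among them those of Trib3, Asns and Herpud1. A window was at hand for only 3 of the sensors, and none of these held any of the motifs. That says nothing of whether a factor binds there. In no member did an ERSE overlap an ERSE-II or a CARE. In the sequences below capitals mark the matches, and each is written 5' to 3' on the strand of the gene. They lie at chr2:34771840-34772089 (plus strand) for Hspa5, chr10:86705518-86705671 (minus) for Hsp90b1, chr15:88819495-88819563 (plus) for Creld2, chr10:75893217-75893285 (plus) for Derl3, chr8:94386305-94386399 (plus) for Herpud1, chr16:22857827-22857874 (plus) for Dnajb11 and chr2:152344031-152344071 (minus) for Trib3.
Hspa5: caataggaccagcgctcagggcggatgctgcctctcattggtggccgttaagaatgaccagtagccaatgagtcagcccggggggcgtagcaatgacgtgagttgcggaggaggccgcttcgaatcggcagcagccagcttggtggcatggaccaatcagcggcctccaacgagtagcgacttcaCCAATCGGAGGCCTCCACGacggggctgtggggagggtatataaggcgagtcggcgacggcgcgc
Hsp90b1: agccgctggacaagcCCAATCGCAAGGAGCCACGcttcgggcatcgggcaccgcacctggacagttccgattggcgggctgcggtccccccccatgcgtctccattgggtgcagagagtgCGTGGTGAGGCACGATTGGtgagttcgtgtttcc
Creld2: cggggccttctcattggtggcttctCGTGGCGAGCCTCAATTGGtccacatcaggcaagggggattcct
Derl3: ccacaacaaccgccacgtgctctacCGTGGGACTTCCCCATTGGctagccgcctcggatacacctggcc
Herpud1: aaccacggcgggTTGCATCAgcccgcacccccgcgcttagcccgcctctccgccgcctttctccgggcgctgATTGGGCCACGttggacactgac
Dnajb11: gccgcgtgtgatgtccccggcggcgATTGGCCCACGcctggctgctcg
Trib3: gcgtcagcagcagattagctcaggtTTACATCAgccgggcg
In Hspa5 the ERSE began 65 bases upstream of the transcript start. In Hsp90b1 the window held 2 matches, beginning 212 and 107 bases upstream, the nearer of them on the opposite strand. The elements of Creld2 and Derl3 began 126 and 156 bases upstream, both on the opposite strand. In Herpud1 the CARE and the ERSE-II stood in the same stretch, beginning 112 and 52 bases upstream. The matches of Dnajb11 and Trib3 lay just downstream of the start, and are thus transcribed.

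**Figure D1:**
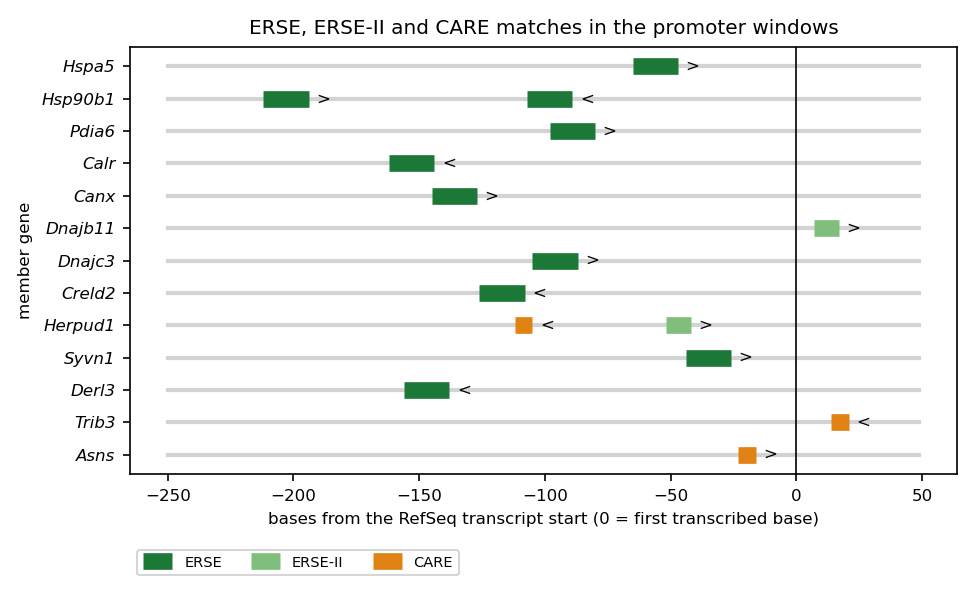
Positions of ERSE, ERSE-II and CARE matches in the promoter windows of the 13 members that hold any. The x axis gives bases from the RefSeq transcript start, grey lines span each window, and the marks > and < give the same strand as the gene and the opposite strand. ERSE matches occur among chaperones and degradation genes, and CARE in Herpud1, Trib3 and Asns.

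Estimated from the step between values, which could not be verified to be 1 read, libraries set beside TG and its WT held 44193275 to 47928229 reads over the listed genes, and those of the het table held 13171145 to 17748088, so low genes were measured with fewer reads there. Ube3a itself was at 1187 and 1359 normalised reads in the WT libraries and at 5991 and 5938 in TG, a 4.69-fold higher level that narrowly missed the threshold (limma, Benjamini-Hochberg adjusted p = 0.0586). In the other table Ube3a was at 369 and 409 in WT and at 301 and 280 in het (log2 fold change -0.42, SE 0.11, limma adjusted p = 0.129). The libraries thus lay on the side of WT that their labels give. All 6 hepatocyte markers were listed in both tables. With 2 libraries a group an exact two-sided permutation test cannot go below p = 0.333, so the tests below are those of limma, which pools the spread over all genes. In whole liver, fewer cells of a type and less RNA per cell cannot be told apart.

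Per kilobase of exon, P4hb (protein disulfide isomerase) was the most abundant of the members with a length, with a mean of 26274 normalised reads per kb in the TG table's WT pair. Calr at 9451, Hsp90b1 at 8906 and Herpud1 at 7659 normalised reads per kb followed. The lowest were Derl3 at 53.0, Trib3 at 75.5, Eif2ak3 at 122 and Ern1 at 136 normalised reads per kb. The sensors IRE1 and PERK were thus rare transcripts beside the folding enzymes, while Xbp1 stood at 2536 normalised reads per kb. No length was taken for Ddit3, whose symbol had no single entry in the annotation.

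In TG livers the members as a whole lay close to WT. With limma at a Benjamini-Hochberg adjusted p under 0.05, 0 of 33 members passed, beside 0 of 13774 genes (0%). At an unadjusted p under 0.05 there was 1 member, Atf4, beside 9.12% of all genes, and limma without a trend in the spread also called 0 genes. The median log2 fold change of the members was 0.103, against 0.001 for all genes, and the median absolute change was 0.167 against 0.195. Both TG libraries lay above both WT libraries for 8 members, where 21.8% of all genes did so, and below them for 1 member, where 21.6% did.

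In het livers 0 of 33 members passed, beside 1.44% of all genes (105 higher and 64 lower). At an unadjusted p under 0.05 there were 5 members, P4hb, Sel1l and Atf5 on the higher side and Sdf2l1 and Ern1 on the lower, beside 14.7% of all genes. Limma without a trend called 0 genes of the whole table, with 1475 at an unadjusted p under 0.05. The median log2 fold change of the members was 0.012 against -0.001 for all genes, and the median absolute change 0.104 against 0.153. Both het libraries lay above both WT libraries for 6 members (24.3% of all genes) and below them for 5 (23.7%). For the difference of the effects, TG against its WT less het against its WT, limma called 0 members beside 0.434% of 11754 genes, and 3 members, Atf4, P4hb and Ern1, had an unadjusted p under 0.05 beside 16.7% of all genes.

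**Figure D2:**
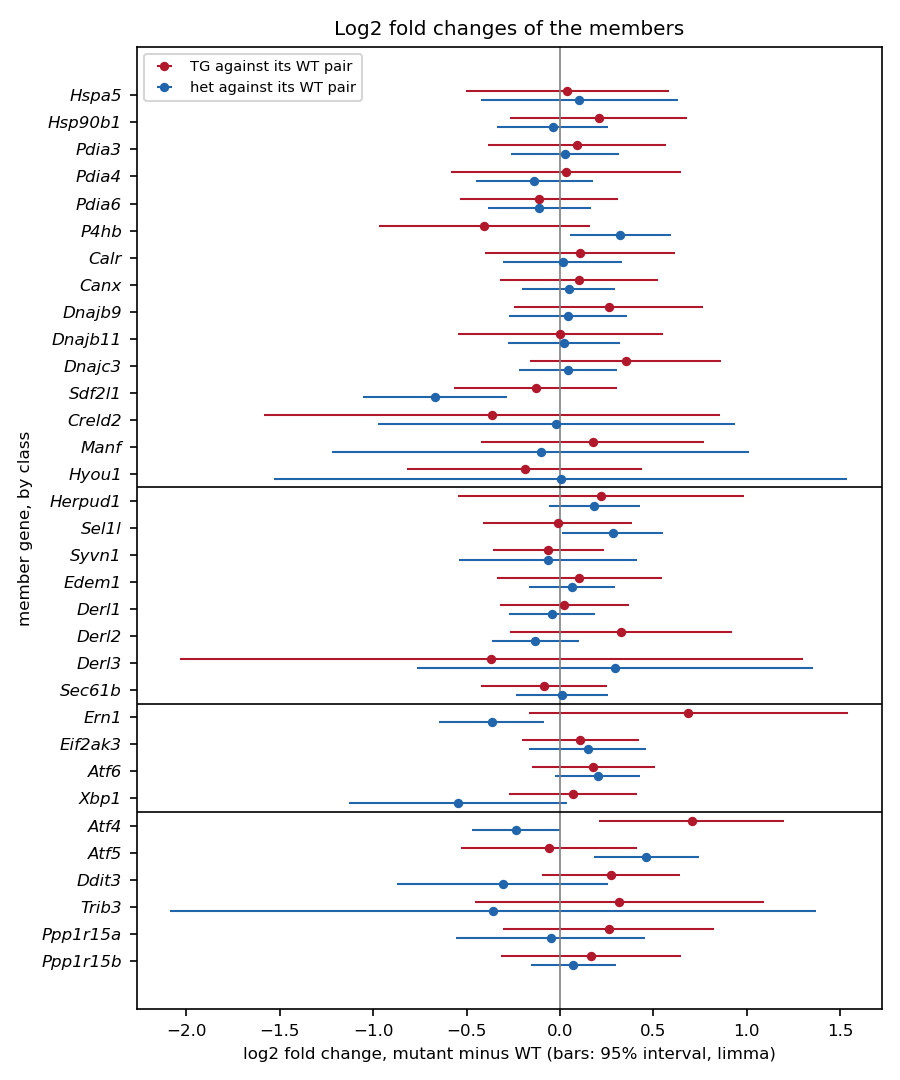
Log2 fold change of each measured member, TG and het each against the WT pair of its table, with the 95% interval from limma (n = 2 libraries a group). Horizontal lines part chaperones, degradation genes, sensors and ATF4-type genes. The widest intervals belong to Derl3, Creld2, Hyou1, Manf and Trib3.

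Among the 15 chaperones, 0 passed in either table, with a median log2 fold change of 0.039 in TG and 0.016 in het. Hspa5 encodes BiP, the main HSP70 of the ER and a common gauge of the response. It was at 23769 and 24145 normalised reads in WT and at 20991 and 28857 in TG. The values beside het were 8559 and 5460 in WT and 7535 and 7167 in het. In both tables the groups overlapped, and the pair with the wider gap was the TG pair in the first and the WT pair in the second. The log2 fold changes were 0.04 (95% interval -0.51 to 0.58, limma adjusted p = 0.966) in TG and 0.10 (-0.42 to 0.63, adjusted p = 0.864) in het.

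P4hb, which forms and rearranges disulfide bonds, was at 68880 and 81457 normalised reads in WT and at 50972 and 62685 in TG. Its level was 21821 and 22078 in the WT pair beside het, and 26950 and 27988 in het. Both TG libraries lay below both of their WT libraries and both het libraries above theirs. The log2 fold change was -0.41 (SE 0.22, limma adjusted p = 0.614) in TG and 0.32 (SE 0.12, adjusted p = 0.261) in het. The difference of the effects was -0.73 (SE 0.24, limma adjusted p = 0.202).

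Sdf2l1, a partner of the co-chaperone Dnajb11 in the ER, was at 193 and 151 normalised reads in WT and at 107 and 107 in het. Both het libraries lay below both WT libraries. This was the member with the smallest p in het (log2 fold change -0.67, 95% interval -1.06 to -0.28, limma adjusted p = 0.113). In the TG table Sdf2l1 was at 455 and 402 in WT and at 353 and 433 in TG, where the groups overlapped.

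Dnajc3 encodes P58IPK, a co-chaperone of BiP that is also known to restrain PERK. It was at 9184 and 10160 normalised reads in WT and at 10544 and 14411 in TG. Both TG libraries were above WT, with the second far above the first (log2 fold change 0.35, SE 0.20, limma adjusted p = 0.624). Dnajb9, the co-chaperone ERdj4, was at 1839 and 2531 in WT and at 2349 and 2851 in TG, with overlap (0.26, SE 0.20, limma adjusted p = 0.696). Pdia4, a further disulfide isomerase, was at 2705 and 2054 in WT and at 2142 and 2145 in het. The het libraries lay between those of WT (-0.14, SE 0.14, limma adjusted p = 0.686). Hsp90b1, Pdia3, Pdia6, Calr, Canx and Dnajb11 had log2 fold changes of -0.11 to 0.21 in TG and of -0.11 to 0.05 in het. Over the class the log2 fold changes ran from -0.41 (P4hb) to 0.35 (Dnajc3) in TG and from -0.67 (Sdf2l1) to 0.32 (P4hb) in het.

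The 8 genes of ER-associated degradation and the translocon had a median log2 fold change of 0.006 in TG, that in het was 0.038, and 0 were called in either. Herpud1, which brings substrates to the degradation complex, was at 14908 and 20831 normalised reads in WT and at 16252 and 25955 in TG. Beside het the values were 5342 and 5697 in WT and 6415 and 6131 in het. The TG table's groups overlapped, with wide gaps within both pairs, and both het libraries lay above WT. The log2 fold changes were 0.22 (SE 0.30, limma adjusted p = 0.818) in TG and 0.19 (SE 0.11, adjusted p = 0.476) in het.

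Sel1l, the scaffold of the HRD1 ubiquitin ligase complex, was at 2038 and 1659 normalised reads in WT and at 2192 and 2283 in het. Both het libraries were above WT (log2 fold change 0.28, SE 0.12, limma adjusted p = 0.317). Its catalytic partner HRD1, encoded by Syvn1, had log2 fold changes of -0.06 in each table. Derl2, a channel-forming derlin, was at 4631 and 5329 in WT and at 7709 and 5044 in TG, where the first TG library stood apart from the other 3 libraries (0.33, SE 0.23, limma adjusted p = 0.677). Against the het libraries Derl2 was at 1928 and 1696 in WT and at 1676 and 1624 in het, just below WT (-0.13, SE 0.10, limma adjusted p = 0.591). Edem1 and Derl1, which act in glycoprotein selection and in export from the ER, had log2 fold changes of 0.105 and 0.02 in TG and of 0.06 and -0.04 in het. Sec61b, a subunit of the translocon, was at 1406 and 1370 in WT and at 1420 and 1204 in TG, with overlap (-0.09, SE 0.13, limma adjusted p = 0.841).

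All 4 sensor genes lay above WT in both TG libraries (21.8% of all genes), and in het 2 lay above (24.3%) and 2 below (23.7%), in each case without overlap. With 4 genes such counts are only a description. Ern1, the kinase and ribonuclease IRE1, was at 1369 and 854 normalised reads in WT and at 2177 and 1397 in TG. In the second table Ern1 was at 330 and 287 in WT and at 231 and 246 in het. The lower TG library was barely above the higher WT library, while both het libraries were below WT. The log2 fold change was 0.69 (SE 0.32, limma adjusted p = 0.589) in TG and -0.37 (SE 0.12, adjusted p = 0.227) in het, and the difference of the effects 1.06 (SE 0.38, limma adjusted p = 0.249).

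Xbp1 was at 8172 and 8302 normalised reads in WT and at 8825 and 8471 in TG. In the second table Xbp1 was at 4318 and 2997 in WT and at 2849 and 2131 in het. The TG libraries were above WT by little, and the het libraries were below WT with wide gaps in both pairs. The log2 fold change was 0.07 (SE 0.14, limma adjusted p = 0.877) in TG and -0.55 (SE 0.23, adjusted p = 0.366) in het. The difference of the effects was 0.62 (SE 0.28, limma adjusted p = 0.317).

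Atf6 lay on the same side in both tables. It was at 2822 and 3244 normalised reads in WT and at 3470 and 3376 in TG, and at 1066 and 954 in WT and 1116 and 1204 in het. Both mutant pairs were above their WT pair (log2 fold change 0.18 with limma adjusted p = 0.684, and 0.20 with adjusted p = 0.399). Eif2ak3, which encodes PERK, was at 709 and 765 in WT and at 780 and 809 in TG (log2 fold change 0.11, limma adjusted p = 0.790). Both TG libraries were above WT. Beside het Eif2ak3 was at 169 and 155 in WT and at 176 and 183 in het, again above WT in both (0.15, limma adjusted p = 0.656).

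The ATF4-type genes had a median log2 fold change of 0.268 in TG and -0.142 in het over the 6 that were listed, and 0 were called. Atf4, the transcription factor of the integrated stress response, was at 2999 and 3030 normalised reads in WT and at 5867 and 4124 in TG. In the second table Atf4 was at 1290 and 1108 in WT and at 1034 and 998 in het. Both TG libraries were well above a WT pair that hardly differed, and both het libraries were below WT. It had the smallest p of the members in TG, at a 1.63-fold higher level (log2 fold change 0.71, 95% interval 0.21 to 1.20, limma adjusted p = 0.518). In het the log2 fold change was -0.23 (SE 0.10, limma adjusted p = 0.344). The difference of the effects, 0.94 (SE 0.23), had the smallest p of the members (limma adjusted p = 0.133), and it passed when the second TG library was left out (1.20, limma adjusted p = 0.00782). Under the same omission P4hb (-0.88, limma adjusted p = 0.0464) and Derl2 (0.77, adjusted p = 0.0452) passed as well, in a fit that then called 643 genes in place of 51.

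Ddit3, which encodes CHOP and is a known target of ATF4, was at 396 and 370 normalised reads in WT and at 441 and 487 in TG. In the second table Ddit3 was at 168 and 105 in WT and at 97 and 118 in het. Both TG libraries were above WT and the het groups overlapped (log2 fold change 0.27 with limma adjusted p = 0.604, and -0.31 with adjusted p = 0.603). Trib3, a pseudokinase induced by CHOP and ATF4, was at 153 and 168 in WT and at 151 and 264 in TG, so that only the second TG library was higher (0.32, limma adjusted p = 0.752). Ppp1r15a, or GADD34, which leads eIF2alpha back to its unphosphorylated state, was at 429 and 460 in WT and at 436 and 651 in TG, again with a high second library (0.26, limma adjusted p = 0.723). The first TG library had the higher Atf4 of its pair and the lower Ddit3, Trib3 and Ppp1r15a. Ppp1r15b, the constitutive counterpart of GADD34, had a log2 fold change of 0.17 in TG, and in het of 0.07. It was at 9009 and 6606 in TG, higher in the first library as Atf4 was, while Atf5 hardly differed there (9789 and 9965).

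Atf5, a relative of Atf4 that is abundant in liver, was at 4408 and 3618 normalised reads in WT and at 5514 and 5505 in het. The het libraries nearly coincided above both WT libraries, at a 1.38-fold higher level (log2 fold change 0.46, 95% interval 0.19 to 0.74, limma adjusted p = 0.124). In the TG table Atf5 was at 11841 and 8958 in WT and at 9789 and 9965 in TG, where the groups overlapped (-0.06, limma adjusted p = 0.928). The difference of the effects was -0.53 (SE 0.23, limma adjusted p = 0.304).

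**Figure D3:**
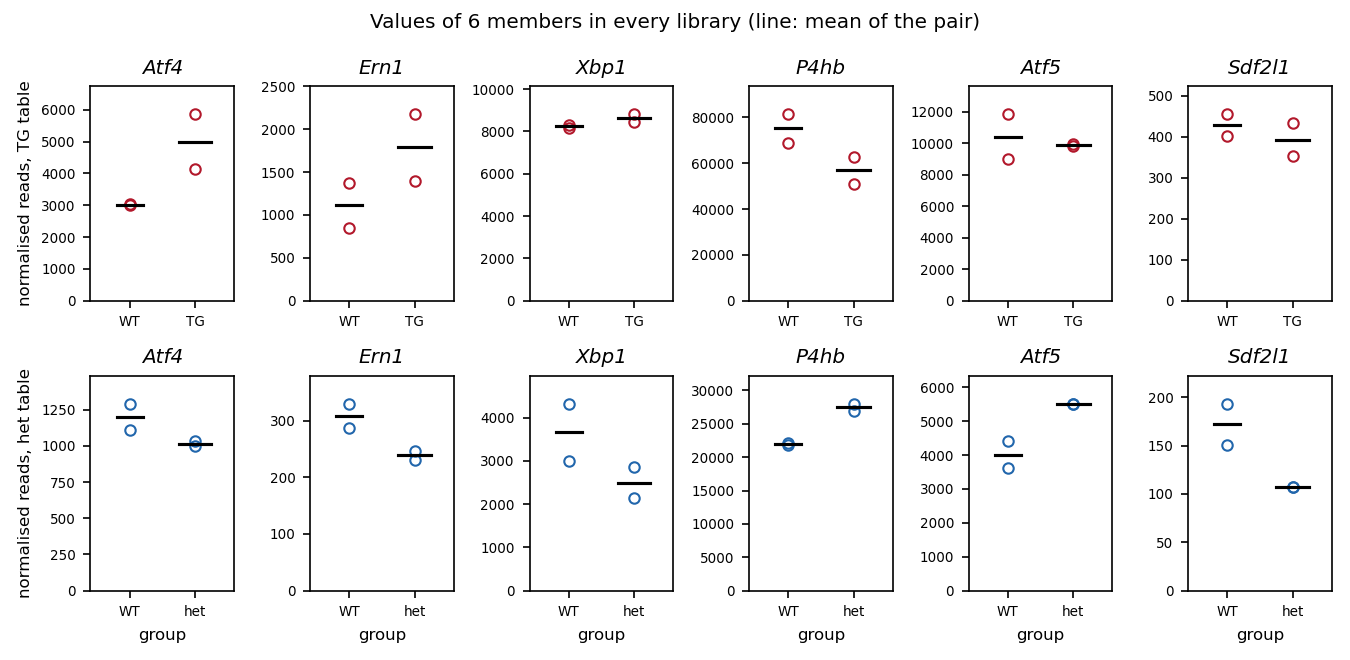
Normalised reads of Atf4, Ern1, Xbp1, P4hb, Atf5 and Sdf2l1 in every library, with the TG table above and the het table below. Circles are libraries, lines are the means of the pairs, and each y axis starts at 0. Atf4, Ern1 and Xbp1 lie above WT in TG and below it in het, and P4hb the other way round. None of these passed the threshold.

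In 2 of the 4 pairs the members lay further apart than genes in general. Their median absolute log2 ratio was 0.329 in the TG pair and 0.301 in the WT pair beside het, where all genes had 0.224 and 0.150. It was 0.137 in the WT pair beside TG and 0.065 in the het pair, where all genes had 0.182 and 0.142. The median absolute log2 fold changes with genotype given above were smaller than the wide gaps, though a ratio of single libraries varies more than a difference of means. All 15 chaperones were higher in the second TG library than in the first, with a median log2 ratio of the first over the second of -0.329, while the ratio over all genes had a median of -0.012 and the first library was the higher for 48.5% of genes. Of the chaperones in the WT pair beside het, 14 of 15 were higher in the first library, with a median log2 ratio of 0.367 against 0.006 for all genes, where the first was higher for 50.8%. P4hb was the exception at -0.02. The het pair hardly differed, with a median absolute log2 ratio of 0.055 for chaperones and 0.142 for all genes, and the WT pair of the TG table was split, with 8 of 15 higher in the first library. As members of a class share their libraries, these counts describe single pairs, and no test over samples is possible within a pair.

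Among the chaperones Hyou1, Manf and Creld2 had the widest gaps in the WT pair beside het (log2 ratios of 1.13, 0.91 and 0.88), and Creld2 and Hyou1 in the TG pair (-1.27 and -0.69). Hyou1, a large chaperone of the HSP70 family, was at 2059 and 940 normalised reads in those WT libraries, and at 3598 and 5817 in the TG libraries. Creld2, an ER protein induced by stress, was at 541 and 293 in the former and at 524 and 1265 in the latter. Manf, a secreted ER-stress factor, was at 1096 and 582, and at 1892 and 2547. In each case the first of these WT libraries and the second TG library were the high ones. In the WT pair of the TG table Manf was at 2312 and 1631, a wider gap than in TG. Hyou1 at 5186 and 5245 and Creld2 at 1063 and 1033 were close there. The het libraries lay between their WT libraries for all of these, with Hyou1 at 1379 and 1412, Creld2 at 378 and 410 and Manf at 795 and 696.

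Derl3, a derlin induced by ER stress, had the widest gap of the degradation genes, at 43.9 and 16.4 normalised reads in the WT pair beside het and at 42.9 and 154 in TG. Its WT libraries in the TG table were close, at 100 and 111. The degradation genes as a class went either way in the TG pair, with 4 of 8 higher in the first library. In the WT pair beside het, higher values in the first library were found for 7 of 8 degradation genes, all 4 sensors and 5 of 6 ATF4-type genes. There Trib3 was at 223 and 91.3 normalised reads, Ddit3 at 168 and 105 and Ppp1r15a at 154 and 99.5. In all 30 of 33 members were higher in the first of these WT libraries.

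**Figure D4:**
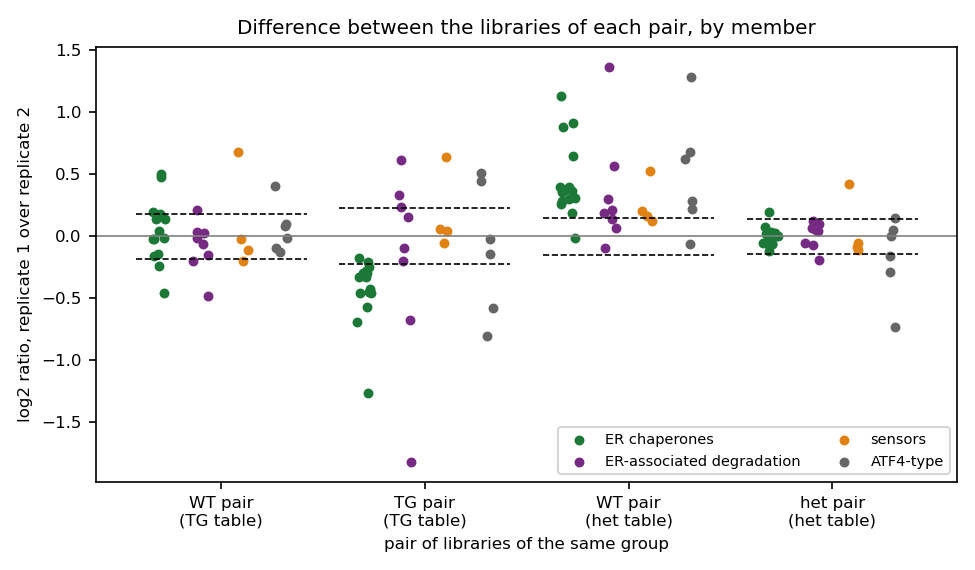
Log2 ratio of replicate 1 over replicate 2 for each member, in each of the 4 pairs of libraries, coloured by class. Dashed lines give the median absolute log2 ratio over all genes of the table, on either side of 0. The chaperones lie below 0 in the TG pair and, but for P4hb, above 0 in the WT pair of the het table.

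**Figure D5:**
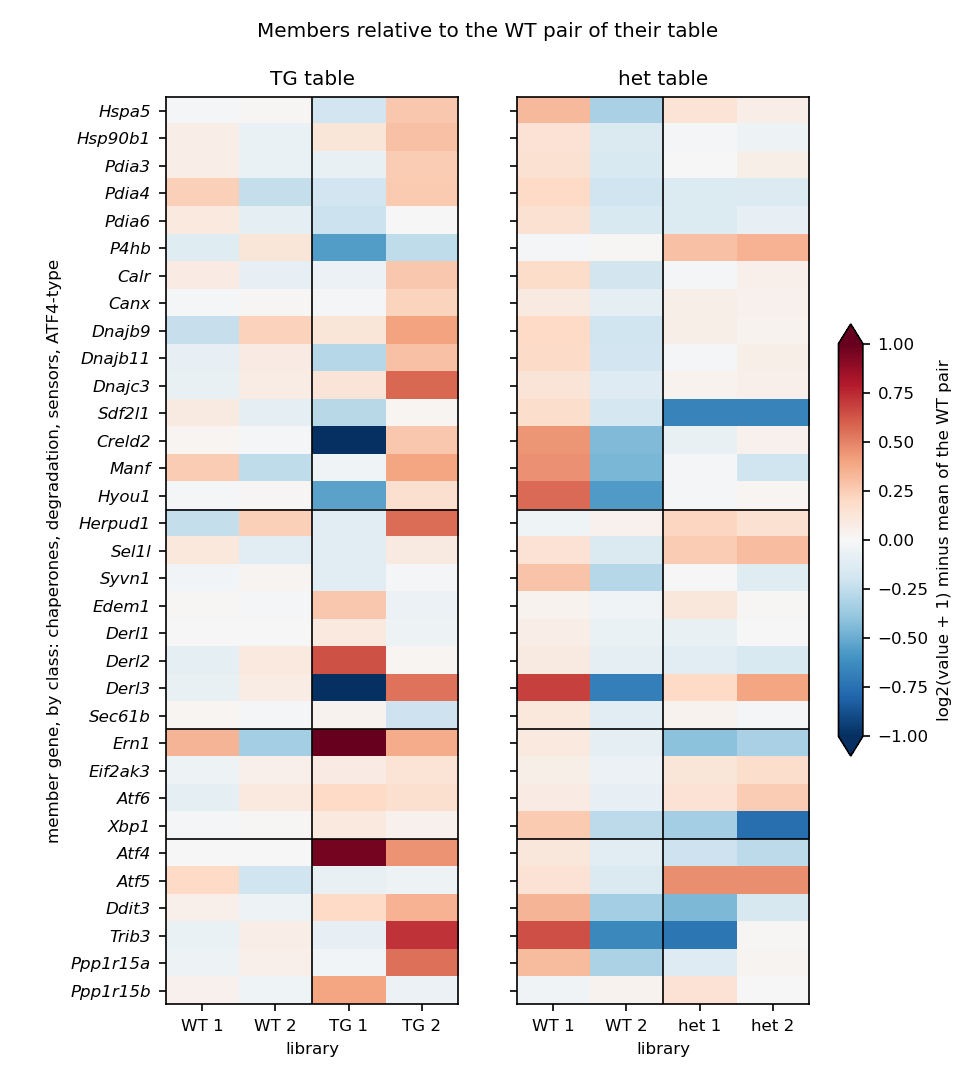
Level of each measured member in each library, as log2(value + 1) less the mean of the WT pair of its table, with colours held at 1 above and below 0. Black lines part the classes and the groups. The mean over the 15 chaperones was -0.205 in the first and 0.228 in the second TG library, and 0.226 and -0.226 in the WT pair beside het.

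Leaving out these libraries in turn placed the chaperone median on either side of WT. Without the first TG library the median log2 fold change of the chaperones in TG was 0.268, and without the second it was -0.191. Without the second WT library of the het table that of het was -0.181, and its range over the omissions reached 0.199. The ATF4-type median in het ran from -0.354 to 0.152. No member was called in TG or het under any omission of a library. The sign of the chaperone median, and that of Hspa5, changed with the library that was kept.

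Members with an ERSE or ERSE-II in their window were set beside the rest in all 4 pairs, and the ranges of the log2 ratios overlapped in each. The 11 chaperone and degradation genes that hold one had a median log2 ratio of 0.367 (range -0.093 to 1.367) in the WT pair of the het table and -0.451 (-1.823 to -0.099) in the TG pair. The 9 with a window and neither element had 0.297 (-0.017 to 0.398) and -0.279 (-0.457 to 0.612). In the WT pair of the TG table the medians were -0.023 with an element and 0.037 without, and in the het pair -0.015 and -0.001. The median with an element was thus further from 0 in the TG pair and in the WT pair of the het table. In the other pairs both medians were small beside the median absolute log2 ratio of all genes. That was 0.182 in the WT pair of the TG table and 0.142 in the het pair. Hyou1, Manf and Derl1 had no window and are in neither group. The difference between these groups of genes was not tested.

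Other gene lists also differed between these libraries. Of 16 cytosolic and mitochondrial chaperones in the TG table, 13 were higher in the second TG library (median log2 ratio -0.153), and 13 of the 15 listed beside het were higher in the first WT library there (0.115). The 10 genes of fatty acid synthesis were all higher in the first TG library, with a median log2 ratio of 2.862. They were also all higher in the first het library (0.845), a pair in which the chaperones hardly differed, and in the WT pair beside het 5 of 10 were higher in the first library (-0.060). All 5 Kupffer cell markers were higher in the second TG library and in the second WT library of the het table, with summed levels of 13185 and 17862 normalised reads in TG beside 22641 and 21328 in WT, and of 4980 and 6612 in WT beside 5903 and 8081 in het. Of the 7 plasma and B cell markers, cells rich in ER chaperones, 4 were listed in the TG table, with sums of 217 to 703 normalised reads and the higher sum of the TG pair in the first library. Of the 8 markers of pancreatic acinar cells 3 were listed there, Cela1, Cela2a and Amy2a5, with sums of 413 to 493 in WT and of 460 and 1143 in TG, the higher in the second library. For the het libraries, 2 plasma and B cell markers and 1 acinar marker were listed, with sums of at most 191 and 249. All 5 stellate cell markers were higher in the first TG library (0.390), as Atf4 and Ern1 were.

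Some lists of cell markers had median log2 fold changes of opposite sign in TG and het, with overlap of the groups for part of the markers. The 6 hepatocyte markers had a median of 0.304 in TG, where 4 lay above WT without overlap (21.8% of all genes). In het the median was -0.135, and 1 lay above (24.3% of all genes), 2 below (23.7%) and 3 overlapped. The 6 markers summed to 4467932 and 3906815 normalised reads in TG beside 4176460 and 3260206 in WT. In het the sums were 1234130 and 1379284, beside 1534629 and 1311139 in WT, and the groups overlapped in both tables. All 4 endothelial markers lay below WT in TG without overlap (median -0.273), as 21.6% of all genes did. Their sums were 6676 and 7122 in TG beside 8581 and 8302 in WT. Above WT without overlap were 3 of these 4 in het (median 0.246). The 4 summed to 2449 and 2594 in het beside 2133 and 2438 in WT. The 5 Kupffer markers had medians of -0.403 in TG, with 4 below WT without overlap, and 0.322 in het, with 1 above. Medians of the 5 stellate markers were 0.287 in TG, with 2 above and 1 below, and -0.111 in het, with 3 below. Limma called 0 markers of these lists in either table. At an unadjusted p under 0.05 there was 1 hepatocyte marker in each table, 0 endothelial markers in TG and 2 in het. Of the Kupffer and stellate markers, 2 and 1 had such a p in TG and 0 in het. The share of all genes was 9.12% in TG and 14.7% in het. With lists this short the counts are only a description. The part of fatty acid synthesis, of hepatocytes, of Kupffer, stellate and endothelial cells, of plasma and B cells and of acinar cells in the values of the members was not tested.

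The wider pathway was read from lists of 100 further genes, of which 95 were listed in TG and 90 in het, and limma called 0 of them in either table. At an unadjusted p under 0.05 there were 4 of 95 in TG, beside 9.12% of all genes, and 6 of 90 in het, beside 14.7%, so that neither count exceeded the share of genes in general. Of 30 further genes of folding and translocation, the median log2 fold change was 0.001 in TG and -0.042 in het. In the WT pair beside het, 27 of 30 were higher in the first library (median log2 ratio 0.197), as most chaperone members were. Within the TG pair, 20 of 30 were higher in the second library, with a median log2 ratio of -0.075 beside -0.329 for the chaperone members. Their median absolute log2 ratio there was 0.152, below the 0.224 of all genes. The gap of the chaperones in the TG pair was thus not seen at that size in these further genes. Pdia5, a disulfide isomerase, was at 714 and 650 normalised reads in WT and at 530 and 511 in het, below WT in both (log2 fold change -0.39, SE 0.10, limma adjusted p = 0.111). In the TG table it was at 2226 and 1677 in WT and at 2385 and 2459 in TG, above WT in both (0.33, SE 0.17, limma adjusted p = 0.601). Tram1, which helps chains through the translocon, was at 4750 and 5721 in WT and at 8279 and 6773 in TG (0.52, SE 0.18, limma adjusted p = 0.534). The other genes named by the rule in this list, Rpn1 in TG and Ostc and Fkbp2 in het, had absolute log2 fold changes of 0.25 to 0.28.

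Among the 15 further degradation genes listed the medians were 0.017 in TG and 0.130 in het, where 12 of 15 lay above 0 and the first in p was Ube2g2, a ubiquitin-conjugating enzyme of this route (0.32, limma adjusted p = 0.381). Those of smallest p in TG were Herpud2 (0.29), Edem2 (-0.18) and Rnf139 (0.18), and Ngly1 and Herpud2 followed in het with log2 fold changes of 0.20 each. The 16 further sensors and regulators had medians of -0.073 and 0.045. In TG the adaptor Nck1 (0.31), the ER-bound factor Creb3l2 (0.27) and the ER caspase Casp12 (0.67) had the smallest p, with limma adjusted p from 0.554. In het these were Nck1 (0.22), Creb3l2 (0.32) and Eif2ak4 (0.24), which encodes the amino acid sensor GCN2.

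Of 38 further targets of ATF4 and the integrated stress response, 34 were listed in TG with a median log2 fold change of 0.074 and 29 in het with 0.027. Bcl2l11, the pro-apoptotic BIM, was at 295 and 322 normalised reads in WT and at 477 and 528 in TG (0.70, SE 0.15, limma adjusted p = 0.440). Cebpg, a partner of ATF4 on DNA, was at 2466 and 2677 in WT and at 4219 and 3274 in TG (0.53, SE 0.16, limma adjusted p = 0.526). Both TG libraries were above WT for these, with the first TG library the higher for Cebpg, as for Atf4. Wars, the tryptophanyl-tRNA synthetase, lay on the other side in TG (-0.38, limma adjusted p = 0.534). In het Fgf21, a hormone secreted by the liver, was at 24.4 and 13.3 in WT and at 41.4 and 150 in het, a wide range at low counts (2.07, SE 0.72, limma adjusted p = 0.324). Eif4ebp1 and Slc3a2 had log2 fold changes of -0.26 and -0.24 there. Of 5 RNAs that IRE1 is known to cleave in other work, 5 were listed in TG with a median of 0.086 and 4 in het with -0.036. Limma called 0 in either, with 0 and 1 at an unadjusted p under 0.05, beside 9.12% and 14.7% of all genes. With lists this short the counts are only a description.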

How the data were processed

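Per the labels' protocols, TRIzol was used on the livers and TruSeq for the libraries. Subread 1.5.2, featureCounts, DESeq2 and the GRCm38 build stand in the submitters' processing notes, and use of strand in counting is not given in the sources used here. All deposited signal values are normalised read counts. All entries of a library were within 0.001 of a whole multiple of a step taken as the worth of 1 read. Division of each library by a single factor would give such values. That the step is 1 read could not be verified, as the tables hold few low values, so no count test was run. The TG and het tables were normalised separately and list only genes above a mean of about 11.2 and 17.8. Each mutant was compared with its own WT pair by limma 3.58.1 (trend and robust) in R 4.3.3 on log2(value + 1), which understates the change of low genes, with Benjamini-Hochberg adjusted p under 0.05 over all genes. The difference of the effects came from a joint fit of 8 libraries over 11754 genes. The fit was also run on simulated data with 200 changed genes a table and library gaps drawn separately for each gene. Such data lack gaps shared by a class of genes, so that run says nothing of them. Alternatives were pseudocounts of 0.5 and 5, a mean CPM of at least 5, TMM scaling, no trend, no robust estimates, a joint fit, omission of each library in turn, and a block for the replicate number.

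Values in every library are printed for Hspa5, Xbp1, Atf4 and Ddit3 and for the 3 members of smallest p of each class in each table, and the genes of smallest p, 3 at most, are named of each further pathway list. Members shown for gaps within pairs were chosen after their values were seen. The members, lists and tests were chosen with earlier results of these data known. Exon lengths came from GENCODE M21 on GRCm38, and promoter windows from RefSeq on GRCm38.p6 by symbol.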

Additional observations from a re-analysis of the deposited data

Results flagged for a closer look

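4 members lay on opposite sides of WT in the 2 mutants, with both TG libraries on one side of both of their WT libraries and both het libraries on the other side of theirs. Of all genes listed in both tables, 15.1% did so, beside 4 of 33 members, so the count itself is near that of genes in general. The difference of the effects (TG against WT less het against WT, log2) was 0.941 for Atf4, 1.055 for Ern1, 0.616 for Xbp1 and -0.729 for P4hb. Tested in the joint limma fit, the adjusted p was 0.133 for Atf4, 0.249 for Ern1, 0.317 for Xbp1 and 0.202 for P4hb, so that none passed. Without the second TG library Atf4 and P4hb passed, with limma adjusted p of 0.00782 and 0.0464, where the TG arm is a single library that is assumed to vary like the others.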

How the results depend on the processing

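For TG, het and the difference, 402 of 414 values of named members under the alternatives kept their direction and their side of the threshold, 2 passed it (Atf4 and P4hb in the difference, without the second TG library) and 10 had the other sign. Those 10 arose when a library was left out, in 8 of 33 results. Over these omissions the log2 fold change in TG ran from -0.117 to 0.559 for Herpud1, from -0.191 to 0.268 for Hspa5, from -0.028 to 0.551 for Ppp1r15a and from -0.205 to 0.033 for Sec61b. In het it ran from -0.644 to 0.032 for Ddit3, from -0.220 to 0.428 for Hspa5 and from -0.336 to 0.062 for Pdia4, and in the difference from -0.389 to 0.259 for Hspa5. Class medians ran in TG from -0.191 to 0.268 (chaperones), -0.039 to 0.005 (degradation), 0.068 to 0.221 (sensors) and 0.087 to 0.399 (ATF4-type), and in het from -0.181 to 0.199, -0.101 to 0.128, -0.189 to -0.028 and -0.354 to 0.152. Genes called in TG, 0 as reported, were 25 when the 8 libraries shared 1 fit and 0 to 146 over the omissions, with 6 without TG replicate 1 and 146 without TG replicate 2. In het, 169 as reported became 0 without a trend (1475 at an unadjusted p under 0.05), 93 without robust estimates, 0 in the single fit (1157 at an unadjusted p under 0.05) and 61 to 173 over the omissions, with 65 without the first WT library and 61 and 105 without the first and second het library. In the difference, 51 became 9 without a trend and 5 to 643 over the omissions, with members called from 0 to 3: 22 and 25 genes without the first and second WT library of the TG table, 137 and 643 without the first and second TG library, 5 and 17 without those of WT in the het table, and 6 and 7 without those of het. The cause was not tested. DESeq2 and edgeR were not run, since it could not be verified that the values give whole reads. With the replicate number as a block, 0 genes were called in TG, 138 in het and 46 in the difference, with 0 members in each. Deviations of same-numbered libraries correlated at 0.107 in TG and -0.043 in het over 2 pairs, so the numbers were not taken to pair the libraries. The 2 libraries a group limit the precision of every value.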
